A study of Mus musculus with 6 samples.

Results

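The 9 genes described here are long noncoding RNAs: the nuclear RNAs Malat1 and Neat1, and the snoRNA host genes Gas5, Snhg1, Snhg3, Snhg5, Snhg6, Snhg8 and Snhg12. They are 9 of the 23091 symbols in the gene tables of all 6 libraries, listed by symbol; the list was chosen by the measured FPKM of Malat1, after this gene had been seen to stand higher in NLRP3KO than in WT cells. The libraries came from CD4 T cells of mice aged 7 weeks on the C57/Bl6j strain, either NLRP3 KO (lacking NLRP3, the sensor protein of an inflammasome) or wild-type (WT). For each genotype there was 1 library of naive T cells from spleen and nodes, 1 of cells after 3 days and 1 of cells after 6 days of T helper type 2 (Th2) culture. Per the labels, Th2 cells grew on a CD3/CD28 coating with IL-4 at 10 ng/ml while interferon gamma was blocked by an antibody. The labels do not say how the knockout allele was made or how many mice a library holds. The 4 Th2 libraries were made from RNA depleted of ribosomal RNA and the 2 naive libraries from purified mRNA.

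Long noncoding RNAs are transcripts that encode no protein and act as RNA or through their own transcription. Malat1 is an abundant RNA of nuclear speckles, and Neat1 is the scaffold of paraspeckles, nuclear bodies built around it together with the DBHS proteins Sfpq, Nono and Pspc1. The host genes carry small nucleolar RNAs (snoRNAs) in their introns; the snoRNAs, which guide chemical modification of ribosomal and other RNAs, are trimmed from the excised introns, while the spliced host RNA is often a target of nonsense-mediated decay. Gas5 was named for its accumulation in growth-arrested cells.

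With 1 library per group there was no replicate, so no p-value is given: each comparison is between 2 libraries, and its interval covers counting error only. Levels are FPKM (fragments normalised to transcript length and to the mapped fragments of the library) as deposited, with the authors' lower and upper confidence bound. Log2 differences were taken on scaled FPKM plus a pseudocount of 1, where scaling set the median ratio of 1059 genes detected in all 6 libraries to be equal. The pseudocount pulls the differences of low genes towards 0. A gene listed at 0 in 1 library can still show a large difference from few fragments. Snhg8 at day 3 had 2.81, on about 1 fragment in NLRP3KO and 0 in WT. Total fragments, read from the whole-number steps of the deposited bounds, were 3112345 in NLRP3KO and 4571257 in WT naive cells. They were 475361 in NLRP3KO and 604216 in WT cells at day 3, and 129744 in NLRP3KO and 562337 in WT cells at day 6. The ribosomal RNA precursor Rn45s had an FPKM between 7819 and 10783 in the naive libraries and between 53218 and 67266 in the Th2 libraries, and an estimated 3094 to 18353 fragments lay on genes in a Th2 library, fewest in NLRP3KO at day 6. There, 3 fragments on a transcript of 1 kb amounted to an FPKM of 23.1, against 4.97 to 6.31 in the other Th2 libraries. Nlrp3 itself was listed at 0 in every library but WT naive cells, where its FPKM was 0.0569, so the genotypes could not be checked from it. All 6 T cell markers (Cd3d, Cd3e, Cd3g, Cd4, Lck and Cd28) were detected in both naive libraries; 1 was at 0 in NLRP3KO at day 3 and 2 in NLRP3KO at day 6.

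Malat1 lies on chromosome 19 (mm9, chr19:5795690-5802671), a single-exon gene model of 6982 bases. Its RNA carries no poly(A) tail at its mature end. The end is made by RNase P, which cuts after an encoded A-rich tract and releases a tRNA-like small RNA, and U-rich stretches fold back on the tract to form a triple helix that protects it. This end is shown because the naive and Th2 libraries were made by different RNA selections, and Malat1 offers an A-rich stretch in place of a tail. In the reference transcript of 6983 bases (GENCODE M21, GRCm38, chr19:5795982-5796072, minus strand) it reads as follows, with both U-rich motifs (as T) and the A-rich tract in capitals; 16 of the 18 bases of the tract are A, and 292 annotated bases follow it.
Malat1 3′ end: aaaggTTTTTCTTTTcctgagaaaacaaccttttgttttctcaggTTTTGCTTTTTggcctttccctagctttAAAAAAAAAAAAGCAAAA

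Malat1 was lower in NLRP3KO than in WT among naive cells and higher in NLRP3KO at both days of Th2 culture. Its FPKM in naive cells was 477 in NLRP3KO (bounds 457 to 482, about 10202 fragments) and 588 in WT (bounds 566 to 590, about 18444 fragments). At day 3 it was 115 in NLRP3KO (bounds 103 to 127, 382 fragments) and 54.0 in WT (bounds 46.7 to 61.4, 228 fragments). At day 6 it was 114 in NLRP3KO (bounds 91.6 to 136, 103 fragments) and 47.0 in WT (bounds 39.99 to 54.0, 184 fragments). The bounds of the paired libraries did not overlap at any of the 3 stages, with or without scaling.

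After scaling, Malat1 differed by −0.72 on the log2 scale in naive cells, with a 95% Clopper-Pearson interval of the ratio from 0.592 to 0.622. It differed by 0.90 at day 3 (ratio interval 1.59 to 2.22) and by 1.10 at day 6 (ratio interval 1.68 to 2.76). These differences are a description, because the Th2 values led to the choice of the 9 genes. Differences of this size were common in the shallow Th2 libraries: Malat1 stood at the 72.7th percentile of all genes kept at day 3 and the 80.3rd at day 6, and at the 5.06th in naive cells. Bounds apart in the higher direction were found in 0.87% of 5749 genes at day 3 and 0.187% of 5336 genes at day 6. These shares include genes listed at 0 in either library, which could not be called apart, and genes with far fewer fragments than Malat1. The percentiles were taken over the same genes. Neither the shares nor the percentiles therefore measure how unusual the Malat1 difference was. In deposited FPKM, Rn45s stood on the same side as Malat1 in each pair, at 7819 in NLRP3KO and 10783 in WT naive cells, 63242 in NLRP3KO and 57645 in WT at day 3, and 67266 in NLRP3KO and 53218 in WT at day 6. After scaling its log2 difference was −0.88 in naive cells, −0.05 at day 3 and 0.17 at day 6. The NLRP3KO library was the shallower of each pair. The part of Rn45s or of depth in the Malat1 differences was not tested. Under the deposited FPKM without scaling the naive difference was −0.30, and with the scaling genes chosen without the NLRP3KO day 6 library (chosen after seeing the data) the day 6 difference was 2.36; the direction at each stage held under all 8 alternatives of scaling and pseudocount.

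**Figure D1:**
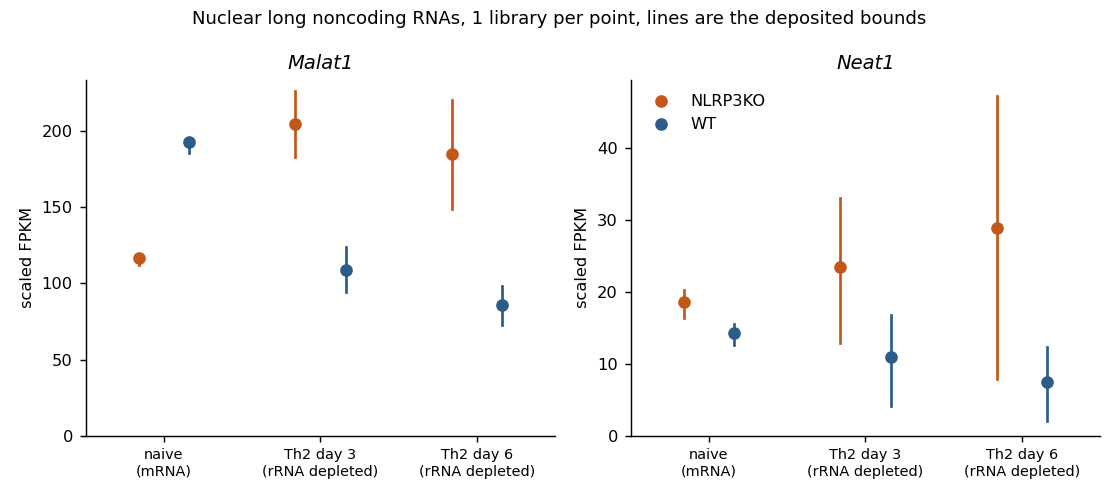
Scaled FPKM of Malat1 (left) and Neat1 (right) in NLRP3KO and WT naive, Th2 day 3 and Th2 day 6 libraries; each point is 1 library and each line spans the deposited confidence bounds times the scale factor. Malat1 bounds are apart at every stage, with NLRP3KO below WT in naive cells and above it at days 3 and 6; Neat1 bounds are apart in naive cells and overlap in Th2 cells.

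In Th2 cells Malat1 was among the highest entries of each table, at rank 35 in NLRP3KO and rank 67 in WT at day 3, and at rank 22 in NLRP3KO and rank 102 in WT at day 6. Between day 6 and day 3 its log2 difference was −0.15 in NLRP3KO (ratio interval 0.718 to 1.12) and −0.34 in WT (ratio interval 0.643 to 0.958), and the scaled bounds overlapped in both genotypes. Other features separated the days: Xist, the X inactivation RNA, had an FPKM of 17.6 in NLRP3KO and 13.7 in WT at day 3 but was listed at 0 in both libraries at day 6, where Y-linked genes were detected (Eif2s3y at 14.3 in NLRP3KO; Kdm5d at 1.00, Uty at 0.699 and Ddx3y at 0.395 in WT). The labels used here do not give the sex of the mice; the part of this in the day 6 against day 3 values was not tested.

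Against naive cells, day 3 Malat1 differed by 0.80 in NLRP3KO (ratio interval 1.60 to 1.97) and by −0.82 in WT (ratio interval 0.502 to 0.655). Culture and RNA selection cannot be told apart in these values. All 12 measured RNAs without a poly(A) tail (ribosomal, RNase P and RNase MRP RNAs, telomerase RNA and histone mRNAs) were at least 2-fold higher at day 3 than in naive cells in both genotypes, by a median of 3.83 in NLRP3KO and 4.54 in WT, whereas 10.8% of 10048 genes in NLRP3KO and 9.99% of 9562 genes in WT were. Malat1 was not at least 2-fold higher in either. Of the 9 genes, none was at least 2-fold higher at day 3 than in naive cells; 2 in NLRP3KO and 4 in WT were lower, each listed at 0 at day 3, where 32.1% of genes in NLRP3KO and 31.3% in WT were lower.

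In naive cells, RNAs without a poly(A) tail also differed between genotypes. Of 11 kept, 3 were at least 2-fold lower in NLRP3KO and none was at least 2-fold higher, with a median of −0.59, against 0.01 for all genes kept, of which 2.32% were lower. Rpph1, the RNA of RNase P, had an FPKM of 88.6 in NLRP3KO and 336 in WT naive cells. Rmrp, the RNA of RNase MRP, had 154 in NLRP3KO and 245 in WT naive cells; Rn45s was lower in NLRP3KO too. All 4 B cell markers were lower in NLRP3KO as well with their bounds apart, with a summed FPKM of 33.0 in NLRP3KO and 74.2 in WT naive cells; Cd79a, a chain of the B cell receptor complex, had 15.0 in NLRP3KO and 37.1 in WT. In Th2 cells 3 or 4 of these 4 markers were at 0 in each library, and markers of CD8 T, myeloid, NK and erythroid cells were all at 0. These zeros do not show that such cells were absent, because the Th2 libraries were shallow. The 6 T cell markers themselves had a summed FPKM, as deposited, of 1587 in NLRP3KO and 1217 in WT naive cells. After scaling they did not share a direction in naive cells. Cd3d (−0.54) and Cd3g (−0.49) were lower in NLRP3KO with bounds apart. Cd3e (0.58), Cd4 (0.27), Lck (0.17) and Cd28 (0.37) were higher with bounds apart, and the median of the 6 was 0.22. The deposited sum of the 6 was 53.6 in NLRP3KO and 40.7 in WT at day 3, and 35.4 in NLRP3KO and 58.3 in WT at day 6. The part of the RNAs without a poly(A) tail or of the B cell markers in the naive Malat1 difference was not tested. In bulk libraries fewer cells of a type and less RNA per cell cannot be told apart.

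Neat1, the paraspeckle scaffold, lies 39630 bases from Malat1 on the same chromosome (mm9, chr19:5842302-5845478). The deposited model has 3177 bases, the length of the short isoform; the long reference transcript has 20771 bases (GENCODE M21), and reads outside the model are not part of these values. Neat1 was higher in NLRP3KO than in WT in all 3 pairs of libraries. Its FPKM in naive cells was 75.7 in NLRP3KO (bounds 67.1 to 82.5, about 740 fragments) and 43.5 in WT (bounds 38.4 to 47.3, about 622 fragments). At day 3 it was 13.2 in NLRP3KO on 19 fragments and 5.46 in WT on 10 fragments, and at day 6 it was 17.8 in NLRP3KO and 4.10 in WT, on about 7 fragments each.

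After scaling, the naive difference was 0.36 (ratio interval 1.17 to 1.45), with bounds apart as in 6.23% of 9985 genes. At day 3 it was 1.03 (ratio interval 0.943 to 5.13) and at day 6 it was 1.82 (ratio interval 1.15 to 12.9), and in both pairs the bounds overlapped. Malat1 and Neat1 thus stood in opposite directions in naive cells and in the same direction in Th2 cells. The ratio of Malat1 to Neat1 FPKM, which needs no scaling between libraries, was 6.30 in NLRP3KO (95% interval 5.82 to 6.77) and 13.5 in WT (12.5 to 14.6) naive cells. It was 8.73 in NLRP3KO and 9.89 in WT at day 3, and 6.40 in NLRP3KO and 11.5 in WT at day 6, with overlapping intervals on both days.

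Genes next to this pair were counted in the same way. Within 100000 bases of Malat1 there were 11 other measured genes; 8 were kept at day 3, of which 2 were at least 2-fold higher and 1 at least 2-fold lower in NLRP3KO, where 25.4% of all genes kept were higher and 27.2% lower. At day 6, 2 of 4 were higher and 2 lower, where 20.9% of all genes were higher and 53.8% lower, so these few counts set nothing apart at this locus. The nearest to Neat1, Frmd8, lay 5495 bases away and had an FPKM of 53.2 in NLRP3KO and 36.0 in WT naive cells, 2.79 in NLRP3KO and 1.64 in WT at day 3, and 5.11 in NLRP3KO and 1.18 in WT at day 6. After scaling, the naive log2 difference of Frmd8 was 0.13, and its scaled bounds overlapped at all 3 stages.

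Of 10 paraspeckle protein genes listed, none of the 10 kept in naive cells was 2-fold higher or lower in NLRP3KO. At day 3, 3 of 8 were at least 2-fold lower and none higher (median −0.68, against 0.11 for all genes kept, of which 27.2% were lower). At day 6, 6 of 9 were lower and none higher (median −1.50, against −1.52 for all genes kept, of which 53.8% were lower). Sfpq, a DBHS protein, had an FPKM of 5.87 in NLRP3KO and 10.99 in WT at day 3, and 4.61 in NLRP3KO and 11.6 in WT at day 6. Its partner Nono had 6.34 in NLRP3KO and 8.56 in WT at day 3, and 6.65 in NLRP3KO and 4.59 in WT at day 6. Hnrnpk, an RNA-binding protein of paraspeckles, had 8.05 in NLRP3KO and 12.6 in WT at day 3, and 4.21 in NLRP3KO and 11.6 in WT at day 6. Pspc1, the third DBHS protein, had 0.943 in NLRP3KO and 7.43 in WT at day 3 with bounds apart, the only one of these 4 with bounds apart at day 3.

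The 7 snoRNA host genes were all detected in naive cells, and they are short when spliced, which sets how well they could be measured. Several belong to the class of genes whose RNA starts with a terminal oligopyrimidine (TOP) tract, a C followed by a run of C or T that places translation of TOP mRNAs under growth control. The sequence around their annotated start is shown for that feature: 30 bases before and 30 bases from the start, RefSeq, GRCm38.p6, gene strand, with a tract of a C and at least 4 further pyrimidines that begins within 5 bases of the start in capitals. Such a tract stands in the windows of Gas5 (the second of 2 annotated starts), Snhg3, Snhg8 and Snhg12, and in 18.3% of 32851 promoter windows of all genes. It was not found under this rule for Snhg1 and Snhg5, nor for Malat1.
Gas5, chr1:161035136-161035195, plus strand: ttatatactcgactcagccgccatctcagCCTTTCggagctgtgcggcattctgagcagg
Snhg3, chr4:132353657-132353716, minus strand: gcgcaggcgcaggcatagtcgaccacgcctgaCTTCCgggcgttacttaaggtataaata
Snhg8, chr3:123508307-123508366, minus strand: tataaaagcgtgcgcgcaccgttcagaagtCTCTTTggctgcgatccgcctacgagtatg
Snhg12, chr4:132308648-132308707, plus strand: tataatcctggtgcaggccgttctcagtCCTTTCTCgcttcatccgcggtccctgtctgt
Snhg1, chr19:8723457-8723516, plus strand: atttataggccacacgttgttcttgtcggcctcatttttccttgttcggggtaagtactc
Snhg5, chr9:88522868-88522927, minus strand: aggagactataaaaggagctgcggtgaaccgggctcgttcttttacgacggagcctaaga
TATAAA on the gene strand 20 to 40 bases before the start was found for Snhg5 and Snhg8 and in 1.99% of all windows. CACGTG, which reads the same on both strands, was looked for in the whole 300-base RefSeq promoter entries from which the printed windows were taken; it was in none of those of the 7 genes that have one and in 7.15% of all. Neat1 and Snhg6 have no window here.

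In naive cells the host genes as a group lay close to equal between genotypes. Their summed scaled FPKM was 87.1 in NLRP3KO and 95.7 in WT, a log2 difference of −0.14. The scaled ratio of their pooled fragments, about 745 in NLRP3KO and 818 in WT, had an interval from 0.903 to 1.10. Pooled fragments weight the genes otherwise than summed FPKM does, so this is not an interval of the −0.14. As deposited the sums were 356 in NLRP3KO and 292 in WT, and the log2 difference was 0.28, so the sign rests on the scaling; the median of all genes detected in both was 0.37 as deposited and 0.01 after scaling.

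Single hosts differed from each other. Snhg8 had an FPKM of 45.7 in NLRP3KO and 49.8 in WT naive cells and was lower in NLRP3KO after scaling, by −0.51 with bounds apart (ratio interval 0.524 to 0.920). Bounds apart in that direction were found in 8.66% of genes. Snhg6 had 25.4 in NLRP3KO and 37.8 in WT, a log2 difference of −0.89 (ratio interval 0.289 to 0.849, on about 22 and 48 fragments), with overlapping bounds. Snhg12 had 85.3 in NLRP3KO and 47.3 in WT, a log2 difference of 0.41 (ratio interval 1.01 to 1.73), also with overlapping bounds.

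The other hosts had ratio intervals that include 1 in naive cells. Snhg1, host of a cluster of C/D box snoRNAs, had an FPKM of 81.4 in NLRP3KO and 72.1 in WT (log2 difference −0.24, which is 0.17 as deposited). Gas5 had 39.999 in NLRP3KO and 28.5 in WT (0.06). Snhg3, host of H/ACA box snoRNAs, had 41.8 in NLRP3KO and 31.0 in WT (0.01). Snhg5 had 36.0 in NLRP3KO and 25.3 in WT (0.08). In the naive order of levels, Snhg12 and Snhg1 were the highest hosts in NLRP3KO, with overlapping bounds, and Snhg1, Snhg8 and Snhg12 in WT, where the bounds of Snhg8 and Snhg12 overlapped. For models this short the deposited FPKM can lie above its own upper bound, as it did for Snhg1, Snhg12 and, in WT, Snhg6 in naive cells, so these levels are uncertain.

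In Th2 cells the host genes were near or below what the libraries could detect. Gas5 was the only host detected in all 4, with an FPKM of 3.49 in NLRP3KO and 5.50 in WT at day 3 and 6.41 in NLRP3KO and 5.16 in WT at day 6, on 1 to 7 fragments. Snhg1 had 6.36 in NLRP3KO and 10.0 in WT at day 3, and was listed at 0 in NLRP3KO and at 10.6 in WT at day 6. Snhg5 had 4.87 in NLRP3KO and 7.66 in WT at day 3, and was listed at 0 in NLRP3KO and at 6.13 in WT at day 6. Every ratio interval of Gas5, Snhg1 and Snhg5 between genotypes in Th2 cells included 1.

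At day 3 Snhg8 had 3.38 in NLRP3KO and 0 in WT, and the reverse held at day 6, with 0 in NLRP3KO and 5.71 in WT. Snhg12 had 18.3 in NLRP3KO (bounds 3.47 to 31.2, about 5 fragments) and 0 in WT at day 3, with a ratio interval that starts at 1.03 and has no upper limit; at day 6 it was listed at 0 in NLRP3KO and at 7.64 in WT. In the WT day 3 library 3 fragments on Snhg12 would have given 8.19, and in the NLRP3KO day 6 library 38.2, so the day 6 zero allows a level above the day 3 value. Snhg3 and Snhg6 were listed at 0 in all 4 Th2 libraries, where 3 fragments on them would have given between 11.4 and 56.8. The summed scaled FPKM of the 7 hosts was 64.7 in NLRP3KO and 46.7 in WT at day 3, a log2 difference of 0.46. Without Snhg12, the highest host in that pair, the difference was −0.53. At day 6 the sum was 10.4 in NLRP3KO and 64.3 in WT. Intervals were taken on the scaled ratio of pooled fragments, not on these sums. They ran from 0.385 to 2.30 at day 3 (11 fragments in NLRP3KO and 13 in WT) and from 0.00650 to 1.81 at day 6 (1 and 14). No genotype difference in the pooled host fragments was detectable at this depth.

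**Figure D2:**
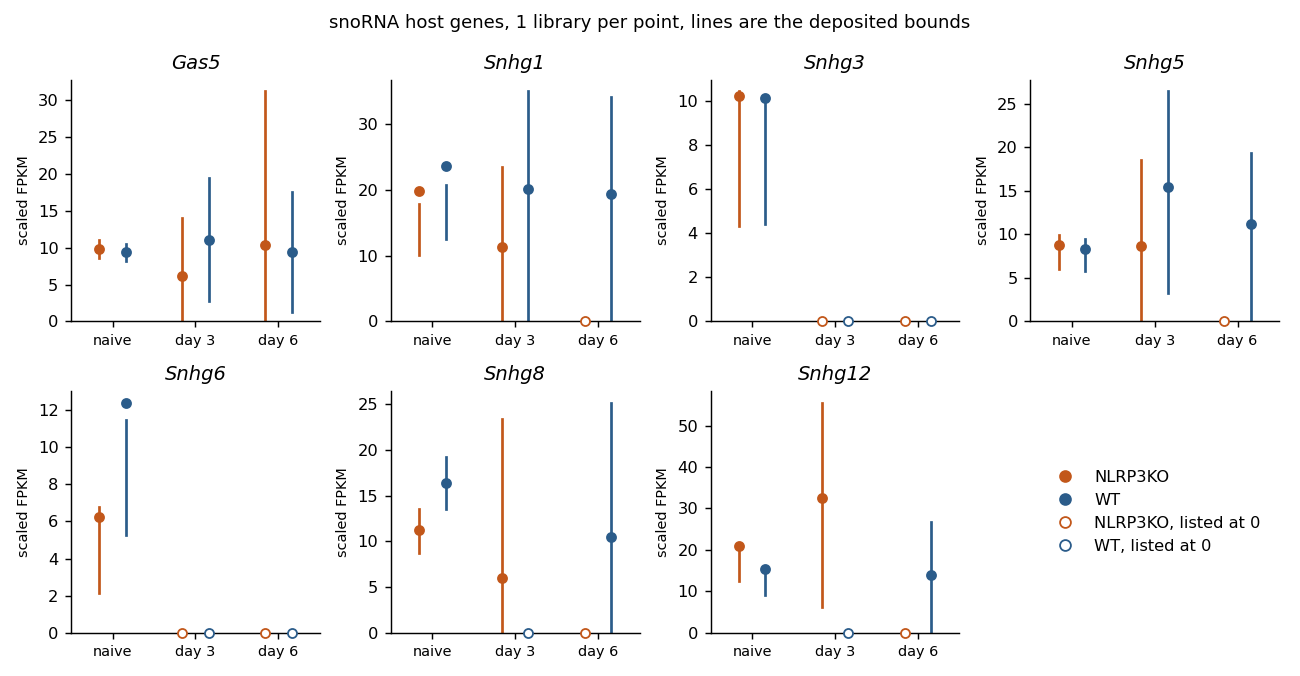
Scaled FPKM of the 7 snoRNA host genes in NLRP3KO and WT libraries at each stage; filled points are detected values with lines for the scaled deposited bounds, and open points are genes listed at 0. All 7 are detected in both naive libraries, and in Th2 cells the lines of most detected values reach 0 or nearly so.

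Counted over all 9 genes, none of 9 kept in naive cells was at least 2-fold higher or lower in NLRP3KO, where 0.21% of 9985 genes were higher and 2.32% lower. At day 3, 3 of 7 kept were at least 2-fold higher (Neat1, Snhg8 and Snhg12) and none lower; in the background 25.4% of 5749 genes were higher and 27.2% lower. At day 6, 2 of 7 kept were higher (Malat1 and Neat1) and 4 lower (Snhg1, Snhg5, Snhg8 and Snhg12, each listed at 0 in NLRP3KO); in the background 20.9% of 5336 genes were higher and 53.8% lower. The median over the kept genes was 0.01 in naive cells; at day 3 it was the 0.90 of Malat1, which led to the choice of the genes, and at day 6 the −3.52 of Snhg8, a gene listed at 0 in NLRP3KO, so nothing is read from the Th2 medians. Bounds were called apart only for genes above 0 in both libraries, since a gene listed at 0 has no width. Among those, Malat1 was the only one of the 9 whose scaled bounds were apart at each day of Th2 culture. Nothing is read from this, since its Th2 values led to the choice of the genes. It also had 103 to 382 fragments in the Th2 libraries, where each other gene of the 9 had at most 19. In the lower direction, where none of the 9 was, bounds were apart in 0.626% of genes at day 3 and 0.675% at day 6. Between day 6 and day 3, none of 7 kept in NLRP3KO was at least 2-fold higher and 4 were lower, each listed at 0 at day 6, where 21% of all genes were higher and 51.8% lower. In WT 2 of 7 (Snhg8 and Snhg12, listed at 0 at day 3) were higher and none lower, where 24.1% were higher and 20.2% lower.

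**Figure D3:**
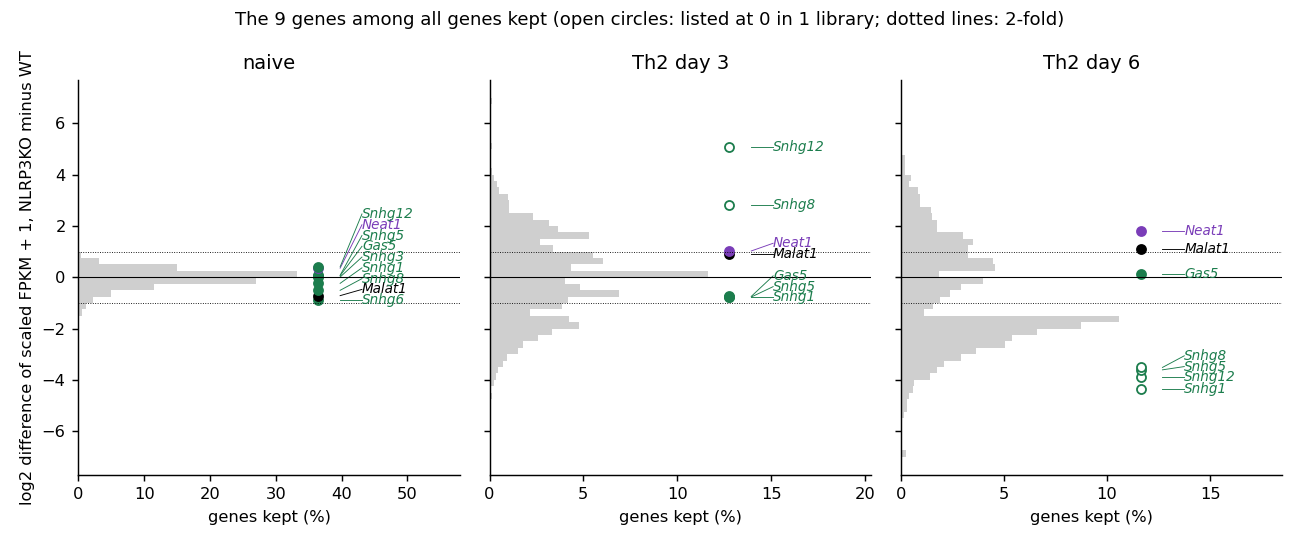
Log2 difference of scaled FPKM plus 1, NLRP3KO minus WT, for the 9 genes (circles) beside the distribution over all genes kept (grey bars, percent of genes; values beyond 7 are in the end bars). The naive distribution is narrow and the Th2 distributions are wide, with a second mode near −1.5 at day 6; Malat1 and Neat1 lie above 0 at both Th2 days, and open circles, genes listed at 0 in 1 of the pair, lie farthest out.

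The snoRNAs carried by these hosts were sparsely measured. Of 28 listed, 7 had an entry of their own, and 4 of those (Snora61, Snord99, Snord47 and Snord87) were at 0 in every library. Snord22, in Snhg1, had an FPKM of 711 in NLRP3KO and 2608 in WT naive cells, 3641 in NLRP3KO and 0 in WT at day 3, and 0 in NLRP3KO and 5245 in WT at day 6. Snora44, in Snhg12, had 300 in NLRP3KO and 147 in WT naive cells, and in Th2 cells was above 0 only in NLRP3KO at day 3, at 2036. Snora16a, also in Snhg12, was above 0 only there, at 281. Library, host and snoRNA thus coincide for Snhg12 at day 3, but features nested in a host share its reads. These models are shorter than the library fragments of about 300 bp, and such values exceed their own upper bounds by many times, so no difference is drawn from them.

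Other snoRNA hosts were compared as a list. Of 13 other noncoding hosts, 5 had an entry; in naive cells none of 3 kept was 2-fold higher or lower. Snhg4 had an FPKM of 4.18 in NLRP3KO and 6.59 in WT at day 3, and 0 in NLRP3KO and 1.76 in WT at day 6. Snhg7 had 3.53 in NLRP3KO and 0 in WT at day 3, and 0 in NLRP3KO and 2.96 in WT at day 6. Protein-coding hosts, many of them ribosomal protein genes, had 8 of 29 at least 2-fold lower and none higher in NLRP3KO naive cells (median −0.71, against 0.01 for all genes kept, of which 2.32% were lower). At day 3, 3 of 26 kept were higher and 4 lower (median −0.10), where 25.4% of all genes were higher and 27.2% lower. At day 6 none was higher and 15 of 26 lower (median −1.17, against −1.52), where 53.8% of all genes were lower. Rps20, a small ribosomal subunit protein, had 763 in NLRP3KO and 1438 in WT naive cells, and Rpl13a, a large subunit protein, had 306 in NLRP3KO and 483 in WT, whereas the elongation factor gene Eef2 had 694 in NLRP3KO and 348 in WT. Ribosomal protein genes have near-identical pseudogene copies, so their values are uncertain. Of the 7 noncoding hosts described above, none was at least 2-fold lower in NLRP3KO naive cells, though Snhg6 came close with a scaled ratio of 0.501. With only 7 genes, no contrast with the protein-coding hosts is drawn.

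Proteins of the snoRNA particles were measured in full in naive cells, where 1 of 13 was at least 2-fold lower in NLRP3KO and none higher (median −0.03). Bounds were apart in the lower direction for Nop56, Nop58, Nhp2l1, Dkc1, Nhp2 and Nop10, and in the higher direction for none of the 13. Among all genes kept, bounds were apart in the lower direction for 8.66% and in the higher direction for 6.23%. At day 3, 2 of 12 kept were higher and 5 lower (median −0.81, against 0.11 for all genes kept, of which 25.4% were higher and 27.2% lower). At day 6 none was higher and 7 of 10 lower (median −2.76, against −1.52 for all genes kept, of which 53.8% were lower), each of the 7 listed at 0 in NLRP3KO. Nop58, a core protein of C/D box particles, had an FPKM of 3.45 in NLRP3KO and 4.52 in WT at day 3, and 4.22 in NLRP3KO and 5.81 in WT at day 6. Its partner Nop56, itself a snoRNA host, had 1.20 in NLRP3KO and 8.52 in WT at day 3, with overlapping bounds, and 0 in NLRP3KO and 7.09 in WT at day 6. Factors of nonsense-mediated decay had none of 8 beyond 2-fold in naive cells; at day 3, 1 of 7 kept was higher and 3 lower, beside 25.4% and 27.2% of all genes, and at day 6, 2 of 6 were higher and 4 lower, beside 20.9% and 53.8%. The kinase gene Smg1 had 2.05 in NLRP3KO and 1.40 in WT at day 3, and 1.00 in NLRP3KO and 3.12 in WT at day 6. The helicase gene Upf1 had 1.42 in NLRP3KO and 3.36 in WT at day 3, and 0 in NLRP3KO and 1.60 in WT at day 6. The endonuclease gene Smg6 had 2.23 in NLRP3KO and 0.293 in WT at day 3, and 2.73 in NLRP3KO and 0.629 in WT at day 6. The Th2 bounds of Smg1 and Smg6 overlapped, as did those of Upf1 at day 3.

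Of 17 other long noncoding RNAs listed, 12 had an entry, and few were detected in Th2 cells. Tug1 had an FPKM of 23.7 in NLRP3KO and 14.0 in WT naive cells, 2.76 in NLRP3KO and 1.26 in WT at day 3, and 4.996 in NLRP3KO and 1.55 in WT at day 6, with log2 differences of 0.28, 0.74 and 1.25 and overlapping bounds throughout. Pvt1, which neighbours Myc, had 2.15 in NLRP3KO and 0 in WT at day 3, and 2.63 in NLRP3KO and 1.21 in WT at day 6. Xist had 37.8 in NLRP3KO and 27.1 in WT naive cells; its Th2 values stand above.

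Malat1, Neat1 and Gas5 were above 0 in all 6 libraries, so their profiles could be set beside those of other genes. Likeness was the Euclidean distance between centred log2 profiles over the 6 libraries, among 228 to 229 genes whose FPKM reached 5 in every library. The 3 nearest to Malat1 were Ndufb9, a complex I subunit (0.65), Psme1, a proteasome activator subunit (0.69), and Lcp1, the actin-bundling protein L-plastin (0.85); Neat1 was at 0.93, and the median gene at 2.10. The 3 nearest to Neat1 were Igfbp4, an IGF-binding protein (0.40), Psme1 and Il21r, the IL-21 receptor (both 0.84), with a median of 2.48. Gas5 was nearest to the initiation factor gene Eif4b (0.49), to Gdi2, a regulator of Rab GTPases (0.53), and to the initiation factor subunit gene Eif3f (0.59), with a median of 1.80. Distances rest on 6 libraries that differ in RNA selection and depth.

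**Figure D4:**
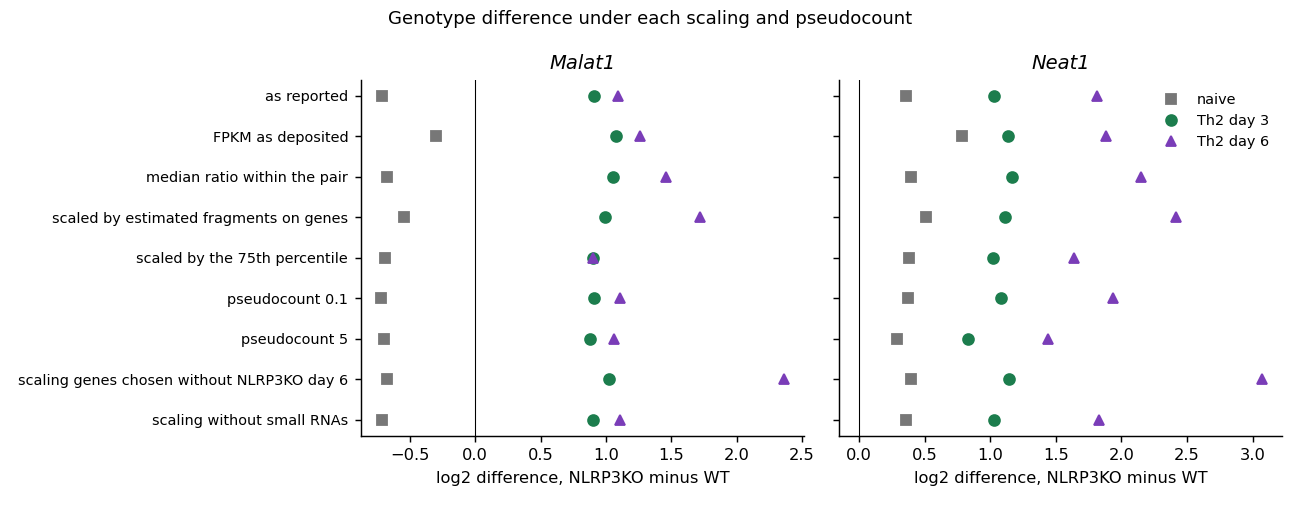
Log2 difference, NLRP3KO minus WT, of Malat1 (left) and Neat1 (right) as reported and under 8 other scalings and pseudocounts, for naive, Th2 day 3 and Th2 day 6 pairs. Malat1 keeps its sign at each stage, from −0.72 to −0.30 in naive cells, 0.88 to 1.08 at day 3 and 0.90 to 2.36 at day 6 under the alternatives, and Neat1 stays above 0 throughout; the day 6 values spread the most.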

How the data were processed

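RNA sequencing tables of 6 libraries, 1 per group, were used. Per the file headers, the authors deposited for each gene model an FPKM with a lower and an upper confidence bound; the submitters' processing notes name TopHat, Cufflinks and mm9, with versions not given in the sources used here. Entries without a valid status were left out, which left 23415. Each library was scaled by its median ratio to the gene-wise geometric means of 1059 genes that reached an FPKM of 1 in every library, and log2 differences were taken on scaled FPKM plus 1, for genes that reached an FPKM of 1 in either library of a pair. A gene was counted as higher or lower at 2-fold, and bounds were called apart on scaled values.

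Fragments were read from the bounds, which are whole multiples of what 1 fragment is worth, within 0.02 fragments, for 7 of the 9 genes; those of Gas5 and Snhg8 were estimated from the width of their bounds. Intervals of a ratio are 95% Clopper-Pearson intervals on these fragments. For the host genes as a group they are on pooled fragments, which is not the ratio of the summed FPKM. Amplified fragments are not independent molecules, so intervals and floors of 3 fragments cover counting error only. The scaling and the 2-fold calls were tested on data simulated at about the depth of the naive pair, not at Th2 depth. The reading of fragments was checked only on bounds made by the same rule, so it could hardly fail. The total fragments, the estimates from width and the ratio intervals were not tested by simulation. With 1 library per group no model across genes was fitted.

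The 9 genes and all lists were chosen with earlier results of these data known. Named genes were all 9, the 3 with the nearest profile for each of the 9 detected in all libraries, and up to 4 of each list with the highest summed Th2 FPKM; Frmd8, Cd79a and the Y-linked genes were named after their values were seen. Sequences came from RefSeq and GENCODE tables of GRCm38, matched by symbol (7 of 9 genes for promoters). Python 3.11.15, pandas 2.3.3, SciPy 1.17.1 and matplotlib 3.10.9 were used.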

Additional observations from a re-analysis of the deposited data

Results flagged for a closer look

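Malat1 differed between NLRP3KO and WT in opposite directions at different stages. Its log2 difference, NLRP3KO minus WT, was −0.72 in naive cells, 0.90 at Th2 day 3 and 1.10 at Th2 day 6, and the deposited bounds of each pair were apart. The Th2 values of Malat1 led to the choice of the genes, so the reversal is a description. The difference between stages was not tested, since each group has 1 library. The naive pair was made from purified mRNA and the Th2 pairs from RNA depleted of ribosomal RNA, so stage and RNA selection cannot be told apart.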

How the results depend on the processing

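The labels give no replicate numbers to pair libraries by, and a fit over the 3 NLRP3KO and WT pairs that takes stage as a block was not run. Depth limits the Th2 values: 3 fragments on a 1 kb transcript amount to an FPKM of 23.1 in NLRP3KO at day 6. Of the main results under their alternatives, 103 values stayed within the counting interval or within 1.5 times the count, and 8 moved. The tally includes counts that were 0 under every setting, and host sums judged against wide intervals of pooled fragments, so it is a weak check. The day 3 host sum, 0.46, was −0.53 without Snhg12 and counted as having stayed. The day 6 host sum, −2.52, was −5.81 without Gas5 and was counted likewise. The naive Malat1 difference, −0.72, was −0.30 on FPKM as deposited, −0.68 with the median ratio within the pair, −0.55 scaled by estimated fragments on genes and −0.67 with scaling genes chosen without NLRP3KO day 6. The day 6 Malat1 difference, 1.10, was 1.72 scaled by estimated fragments on genes and 2.36 with scaling genes chosen without NLRP3KO day 6, settings that moved the median of all genes detected in both from 0.33 to 0.90 and 1.51. The naive host sum, −0.14, was 0.28 as deposited. Genes of the 9 at least 2-fold higher at day 6 numbered 1 rather than 2 when scaled by the 75th percentile. Scaling without the NLRP3KO day 6 library and scaling without small RNAs were chosen after seeing the data. Gas5 changed sign once at day 6 (−0.05, against 0.13).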
